A study of Mus musculus with 12 samples.

Results

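The genes described here are 48 genes of the cell cycle and of DNA replication in bone marrow-derived macrophages (BMDMs) of mice, chosen by name from the 55487 gene models of the deposited table. They are 4 cyclin-dependent kinases (CDKs), 5 D-type and E-type cyclins, 4 cyclins of the A, B and F types, 4 CDK inhibitors, 5 E2F factors and pocket proteins, 12 genes of origin licensing and the replisome, 4 genes of nucleotide supply and 10 genes of mitosis. All 48 were found, and all 48 passed the filter on low levels in every comparison. The rule uses their names and no measured value, but the 48 genes were chosen with earlier results of these data known.

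A dividing cell leaves G1 when D-type and E-type cyclins and their kinases phosphorylate the retinoblastoma (pocket) proteins, which then release the E2F factors that drive the genes of DNA synthesis. CDK inhibitors of the Cip/Kip and INK4 families hold these kinases in check, and the cyclins A and B with Cdk1 later carry the cell into mitosis. Macrophages grown from bone marrow with their growth factor divide in culture, and bacterial lipopolysaccharide (LPS), the ligand of Toll-like receptor 4, is known to stop their proliferation.

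RNA was sequenced from 4 groups of 3 libraries each. These were RasGEF1b-cKO (KO) macrophages of the genotype Rasgef1b-fl/fl;CMVcre given LPS at 100 ng/ml for 4 h, the same KO macrophages left untreated, and wild-type (WT) C57BL/6 macrophages with LPS and without it, all from mice aged 8 to 12 weeks. In the KO mice a Cre recombinase under the CMV promoter, which acts in all tissues and not in macrophages alone, removed exons 7 and 8 of Rasgef1b, a guanine nucleotide exchange factor for small GTPases that LPS induces. The WT mice came from the animal facility of the university and are not described as littermates, so genotype and origin of the mice cannot be told apart, and the libraries of a group are described as biological replicates. The study's methods treat the comparisons as unpaired, between macrophage samples of different mice and conditions, while the labels name no mouse for a library and same-numbered libraries of a genotype deviated together. The p-values measure the spread between these libraries.

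The promoter letters are shown first because the groups of genes differ in them. Windows of 300 bases, from 250 before to 50 after an annotated start, were taken from RefSeq (GRCm38.p6) for 39 of the 48 genes, in 44 windows, and searched on both strands. The E2F-like letters searched were TTTGGCGC, TTTCGCGC, TTTCCCGC and TTTGCCGC, and the letters like the cell cycle genes homology region (CHR) were TTTGAA and TTCGAA, the last of which reads the same on both strands. In the windows printed no E2F-like match overlapped a CHR-like match, while a pair of the E2F-like matches of Mcm6, on opposite strands, shared letters. E2F-like letters stood in 6 of 11 windows of licensing and replisome genes (54.5%) and in 0 of 8 windows of mitosis genes, against 2.26% of all 32851 promoter windows. CHR-like letters stood in 7 of 8 windows of mitosis genes (87.5%) and in 3 of 11 windows of licensing and replisome genes (27.3%), against 19.2% of all windows. Of the 44 windows 10 held E2F-like letters and 15 CHR-like letters, among them 2 with both. The windows printed were picked from those with a match, which stands in capitals. Other genes that changed by over 2-fold after LPS hold no match in any window. Among these are Cdkn1a, Cdkn2d, Cdkn2c, Rrm2 and E2f1, with log2 changes in WT macrophages of 2.68, 2.11, -1.80, -1.67 and -1.38. Cdc20, Plk1 and Ccnf hold CHR-like letters alone, Cdk1 holds both kinds, Mcm6, Cdc6 and the upstream window of E2f2 hold E2F-like letters alone, and Rbl1 holds E2F-like letters and moved the other way after LPS from Cdc6 and E2f2.
Cdc20, chr4:118437294-118437593, minus strand: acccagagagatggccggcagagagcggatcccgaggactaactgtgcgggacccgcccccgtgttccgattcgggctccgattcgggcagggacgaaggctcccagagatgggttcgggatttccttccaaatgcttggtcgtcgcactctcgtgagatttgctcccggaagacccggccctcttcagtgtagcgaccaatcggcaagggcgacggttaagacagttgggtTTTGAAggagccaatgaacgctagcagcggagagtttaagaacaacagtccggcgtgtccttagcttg
Plk1, chr7:122159185-122159484, plus strand: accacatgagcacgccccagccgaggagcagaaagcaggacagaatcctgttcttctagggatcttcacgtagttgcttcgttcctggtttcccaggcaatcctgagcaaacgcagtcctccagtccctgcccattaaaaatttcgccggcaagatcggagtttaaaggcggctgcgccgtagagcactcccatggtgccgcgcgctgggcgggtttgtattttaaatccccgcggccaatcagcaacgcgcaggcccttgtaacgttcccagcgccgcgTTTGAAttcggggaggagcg
Ccnf, chr17:24251360-24251659, minus strand: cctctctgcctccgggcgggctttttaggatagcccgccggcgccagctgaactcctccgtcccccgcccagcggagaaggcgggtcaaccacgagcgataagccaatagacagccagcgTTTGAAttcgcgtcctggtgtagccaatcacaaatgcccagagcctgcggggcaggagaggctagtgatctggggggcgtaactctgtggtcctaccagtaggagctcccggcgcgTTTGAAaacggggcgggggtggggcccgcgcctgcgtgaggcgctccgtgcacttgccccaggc
Cdk1, chr10:69352863-69353162, minus strand: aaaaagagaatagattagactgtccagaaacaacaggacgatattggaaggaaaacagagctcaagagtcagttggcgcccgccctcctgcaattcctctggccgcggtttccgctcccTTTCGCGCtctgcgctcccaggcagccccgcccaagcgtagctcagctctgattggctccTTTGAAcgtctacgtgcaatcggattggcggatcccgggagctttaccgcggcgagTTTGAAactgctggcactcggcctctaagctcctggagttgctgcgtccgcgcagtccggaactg
Mcm6, chr1:128359656-128359955, minus strand: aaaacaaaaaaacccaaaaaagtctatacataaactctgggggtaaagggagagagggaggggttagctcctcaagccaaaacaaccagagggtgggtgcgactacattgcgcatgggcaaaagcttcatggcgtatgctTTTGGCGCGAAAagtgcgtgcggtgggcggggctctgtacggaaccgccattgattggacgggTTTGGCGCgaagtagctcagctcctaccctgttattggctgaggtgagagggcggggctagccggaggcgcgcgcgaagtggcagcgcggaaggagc
Cdc6, chr11:98907901-98908200, plus strand: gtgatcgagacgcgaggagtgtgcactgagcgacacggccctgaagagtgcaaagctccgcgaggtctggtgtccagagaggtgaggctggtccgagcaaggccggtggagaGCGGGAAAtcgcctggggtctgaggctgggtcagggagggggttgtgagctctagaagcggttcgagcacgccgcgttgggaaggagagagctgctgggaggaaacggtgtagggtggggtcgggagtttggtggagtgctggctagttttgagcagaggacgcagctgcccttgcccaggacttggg
E2f2, chr4:136172024-136172323, plus strand: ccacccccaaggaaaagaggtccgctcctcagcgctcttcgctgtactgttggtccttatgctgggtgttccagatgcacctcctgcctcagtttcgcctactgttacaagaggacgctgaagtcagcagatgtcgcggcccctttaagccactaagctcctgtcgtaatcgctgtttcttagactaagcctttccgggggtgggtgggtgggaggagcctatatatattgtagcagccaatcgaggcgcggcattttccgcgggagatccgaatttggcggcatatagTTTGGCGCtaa
Rbl1, chr2:157204485-157204784, minus strand: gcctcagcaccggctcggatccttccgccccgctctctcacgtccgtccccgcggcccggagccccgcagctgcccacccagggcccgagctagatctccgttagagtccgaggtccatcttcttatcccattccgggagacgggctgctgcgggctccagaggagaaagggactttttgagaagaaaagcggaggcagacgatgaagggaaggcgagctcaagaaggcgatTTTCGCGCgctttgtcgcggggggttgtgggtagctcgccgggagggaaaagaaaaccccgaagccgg

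The letters are a description of these windows and not evidence of a factor at them. Cdc20 carries its match 18 bases before the start and Plk1 30 bases after it, while Cdk1 carries its E2F-like match 131 bases before the start and its CHR-like matches 71 and 15 bases before it. Mcm6 has 3 E2F-like matches, the most of any of the 44 windows, and had overlapping levels in LPS-treated and untreated macrophages. Among windows not printed, those of Mki67 and Ccnb2 hold 2 CHR-like matches each and that of E2f8 holds 1. None of these genes passed the call defined below. Their log2 changes after LPS in WT macrophages were 0.04 (Mki67), -0.39 (Ccnb2) and -0.21 (E2f8).

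The libraries held 19316691 to 24977356 reads in genes, and the 48 genes took 0.331% to 0.405% of them. Rasgef1b averaged 3862 ± 297 normalized counts in LPS-treated KO and 609 ± 77.4 in untreated KO macrophages, against 12084 ± 407 in LPS-treated WT and 2072 ± 88.2 in untreated WT macrophages (SD, n = 3 each), and within each condition every KO library lay below every WT library. Summed macrophage markers (7 genes, among them Csf1r and Adgre1) lay between 210300 and 363900 normalized counts in all 12 libraries. Markers of erythroid cells summed to 5.58 at most, those of stroma to 29.0, those of progenitors to 52.3, those of dendritic cells to 102.8, those of neutrophils and their precursors to 502 and those of B cells to 1084. The 4 T cell markers summed to 676 to 1108 in LPS-treated and 2.15 to 5.64 in untreated KO macrophages, and to 1023 to 1347 in LPS-treated and 2.64 to 4.15 in untreated WT macrophages. Nearly all of that was Lck, while Cd3d was at 0 in every library and Cd3e and Trac had a normalized count of at most 1.71. Their part in the results was not tested. One library, replicate 2 of the untreated KO macrophages, gave 5.06% of its reads to CT010467.1, a model of ribosomal RNA, against 0.0398% to 0.0874% in the other libraries, and the main counts between genotypes that include it are given without it as well. In bulk samples fewer cells in cycle and less of an RNA per cell cannot be told apart.

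Whether LPS changed these genes was asked within each genotype. A gene was called where the adjusted p of limma, fitted across all genes with Benjamini-Hochberg adjustment, was under 0.05 and the change at least 2-fold, and changes are differences of log2 of the normalized count plus 1, given ± SE. In KO macrophages 24 of the 48 genes fell and 6 rose after LPS, against backgrounds of 16.6% called lower and 17.3% called higher among all genes tested. In WT macrophages 23 fell and 4 rose, against 16.9% and 17.1% of all genes. The median change of the 48 genes was -0.998 in KO and -0.90 in WT macrophages, while that of all genes was -0.01 in KO and -0.02 in WT. Treated and untreated libraries did not overlap for 34 genes lower and 8 higher in KO, and for 35 lower and 7 higher in WT. Over all genes this held for 4852 lower and 4891 higher of 12732 in KO, and for 4888 and 4847 of 12656 in WT. All 27 genes called in WT were also called in KO macrophages, and 3 more, Ccne1, Mcm10 and Tk1, passed in KO alone, although the differences between genotypes in the LPS response did not pass the interaction test for any of the 48. Leaving out 1 library at a time gave 24 to 25 lower and 5 to 6 higher genes in KO, and 21 to 24 lower and 4 higher in WT. Without replicate 2 of the untreated KO macrophages the counts in KO were 25 lower and 6 higher.

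**Figure D1:**
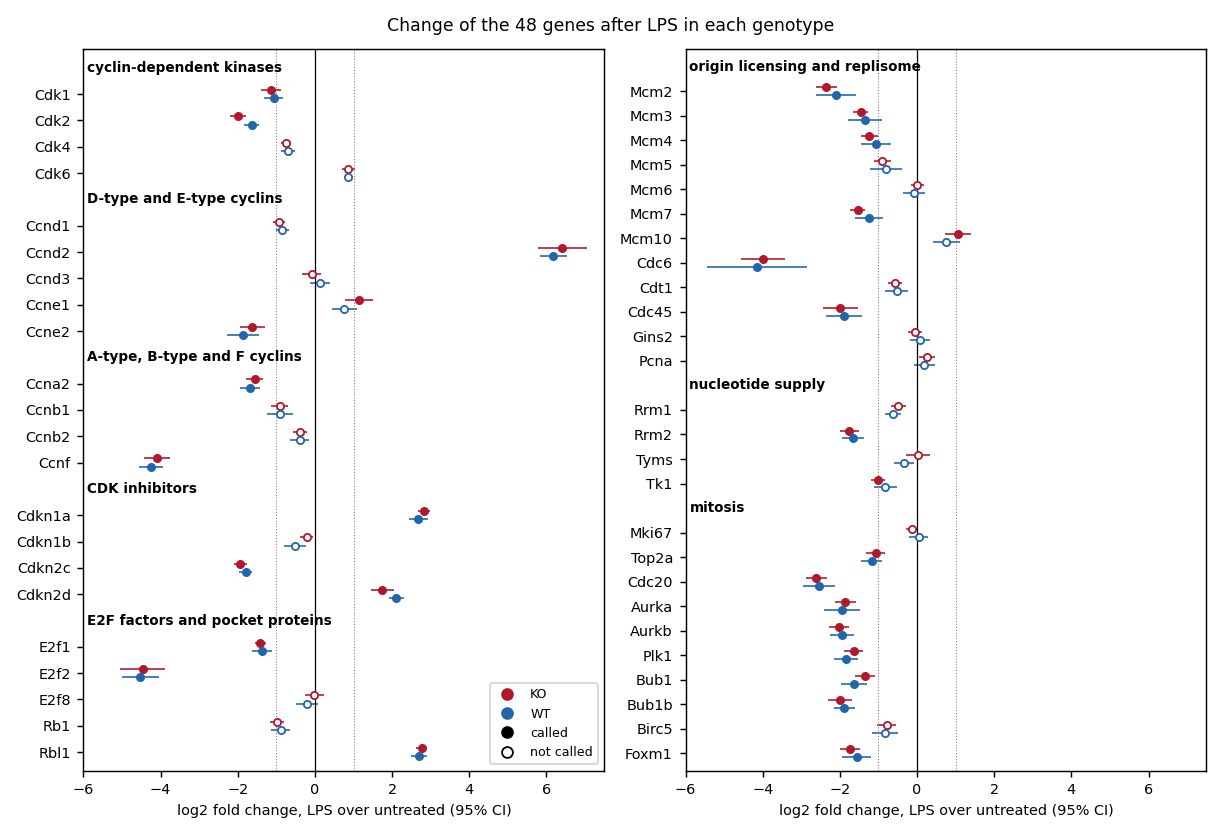
Log2 fold change of each of the 48 genes after LPS (x axis, LPS over untreated, with 95% confidence interval), by role, in KO (red) and WT (blue) macrophages. Filled points passed the call, the dotted lines mark 2-fold, and the 3 genes furthest to the left in both genotypes are E2f2, Ccnf and Cdc6, while Ccnd2 stands alone on the right.

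These changes are relative to the median gene, which the size factors of the deposited table hold near 0. Scaling each library to its total reads moved the median of all genes by -0.69 in KO and -0.73 in WT macrophages, and the 48 genes' median relative to it was then -0.98 in KO and -0.87 in WT. With that scaling 33 genes were called lower and 4 higher in KO, and 35 lower and 4 higher in WT macrophages. Upper quartile scaling moved the median of all genes by 0.29 in KO and 0.30 in WT and left 20 lower and 7 higher in KO and 19 lower and 7 higher in WT. No gene called in either genotype turned its direction under any scaling, but Cdk1, Mcm4 and Top2a in both genotypes, Mcm7 in WT and Tk1 in KO lost the call under upper quartile scaling, Tk1 also under quantile normalization, and Ccne1 and Mcm10 in KO under scaling to total reads. Other genes gained a call. Among them Ccnd1, Cdk4, Rb1 and Mcm5 were called lower in both genotypes under quantile normalization and under scaling to total reads. Cdk6 was called higher in both genotypes under upper quartile scaling.

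Among the D-type cyclins, the partners of Cdk4 and Cdk6 that link growth signals to G1, Ccnd2 rose while Ccnd1 was lower by less than 2-fold. Ccnd2 had 12210.3, 10357 and 7829 normalized counts in LPS-treated KO macrophages, against 183, 108 and 79.5 in untreated KO macrophages. In WT macrophages Ccnd2 had 8056, 9279 and 11368 with LPS, against 136, 104 and 154 without. Every LPS-treated library of Ccnd2 (GRCm38 chr6:127125162-127152193, minus strand) lay far above every untreated one, a rise of 6.41 ± 0.28 in KO (85-fold, adjusted p = 1.27e-07, limma) and 6.18 ± 0.15 in WT (72.6-fold, adjusted p = 1.42e-09, limma), the largest among the 48 genes in both genotypes. Ccnd1 averaged 2133 ± 129 in LPS-treated KO and 4073 ± 179.7 in untreated KO macrophages. Ccnd1 in WT averaged 3006 ± 289.9 with LPS and 5395 ± 320.3 without (SD, n = 3 each, as for all means below). Its groups did not overlap and its change was -0.93 ± 0.07 in KO and -0.85 ± 0.08 in WT macrophages, short of 2-fold though the adjusted p of limma was 2.62e-06 in KO and 7.26e-06 in WT. Ccnd3 averaged 478 ± 18.9 in LPS-treated KO and 509 ± 76.2 in untreated KO macrophages. Ccnd3 in WT averaged 517 ± 89.4 with LPS and 469 ± 28.2 without. The groups of Ccnd3 overlapped, with changes of -0.08 ± 0.11 in KO and 0.13 ± 0.12 in WT macrophages, of which that in KO turned positive under upper quartile scaling and that in WT negative under scaling to total reads.

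The E-type cyclins, which with Cdk2 start DNA synthesis, differed as well. Ccne2 averaged 89.8 ± 6.45 in LPS-treated KO and 281 ± 43.5 in untreated KO macrophages. Ccne2 in WT averaged 72.5 ± 13.8 with LPS and 266 ± 47.3 without. Ccne2 fell with a log2 change of -1.62 ± 0.14 in KO and -1.86 ± 0.18 in WT macrophages (adjusted p = 9.17e-06 and 1.17e-05, limma). Ccne1 averaged 448 ± 99.8 in LPS-treated KO and 199 ± 15.6 in untreated KO macrophages. Ccne1 in WT averaged 356 ± 33.9 with LPS and 212 ± 38.7 without. It rose in KO macrophages (1.15 ± 0.16, adjusted p = 0.000182, limma), although without replicate 2 of the LPS-treated KO macrophages its change was 0.99 and not called, and its change in WT macrophages was 0.76 ± 0.14, also without overlap of the groups. Per kilobase of exons Ccnd2 stood at 13.1 normalized counts in untreated KO and 13.9 in untreated WT macrophages, the lowest of the 3 D-type cyclins, and at 1077 with LPS in KO and 1017 with LPS in WT, the highest of the 3. Ccnd1 stood at 453 per kilobase in LPS-treated KO and 865 in untreated KO macrophages, and at 638 in LPS-treated WT and 1146 in untreated WT macrophages.

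All 4 cyclins of the A, B and F types were lower in every LPS-treated library than in any untreated one of the same genotype, and 2 of them passed the call. Of all genes, 4852 of 12732 in KO and 4888 of 12656 in WT were lower without overlap in the same way. Ccnf, whose product is the substrate receptor of a ubiquitin ligase and not a partner of a CDK, had 29, 32.7 and 39.5 normalized counts in LPS-treated KO macrophages, against 593, 659 and 523 in untreated KO macrophages. In WT macrophages Ccnf had 22.5, 23.2 and 23.6 with LPS, against 441, 533 and 411 without. It fell 17.1-fold in KO (-4.10 ± 0.15, adjusted p = 4.73e-08, limma) and 19.1-fold in WT macrophages (-4.25 ± 0.14, adjusted p = 6.91e-09, limma). Ccna2, the cyclin of S and G2 phases, averaged 346 ± 27.2 in LPS-treated KO and 1026 ± 102 in untreated KO macrophages. Ccna2 in WT averaged 259 ± 20.4 with LPS and 841 ± 127 without. Ccna2 fell with a log2 change of -1.57 ± 0.10 in KO and -1.69 ± 0.11 in WT macrophages (adjusted p = 1.03e-06 and 9.03e-07, limma). The mitotic cyclins stayed under 2-fold with all libraries and the deposited scaling. Ccnb1 averaged 380.4 ± 9.97 in LPS-treated KO and 721 ± 80 in untreated KO macrophages. Ccnb1 in WT averaged 304 ± 65.9 with LPS and 565 ± 77.1 without. The change of Ccnb1 was -0.91 ± 0.09 in KO and -0.91 ± 0.15 in WT macrophages. Ccnb2 averaged 554 ± 26.7 in LPS-treated KO and 729.6 ± 53.8 in untreated KO macrophages. Ccnb2 in WT averaged 377 ± 36.4 with LPS and 495 ± 57.2 without. The change of Ccnb2 was -0.39 ± 0.08 in KO and -0.39 ± 0.11 in WT macrophages. Under scaling to total reads both were called lower, Ccnb1 at -1.60 in KO and -1.63 in WT and Ccnb2 at -1.08 and -1.11.

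Of the 4 kinases, 2 fell. Cdk2, the partner of cyclins E and A, had 204, 238 and 203 normalized counts in LPS-treated KO macrophages, against 904, 826 and 833 in untreated KO macrophages. In WT macrophages Cdk2 had 241, 287 and 271 with LPS, against 783, 855 and 849 without. The groups were far apart, and Cdk2 fell with a log2 change of -1.99 ± 0.09 in KO and -1.64 ± 0.09 in WT macrophages (adjusted p = 1.6e-07 and 1.58e-07, limma). Cdk1, the mitotic kinase, averaged 442 ± 69.5 in LPS-treated KO and 963 ± 70.1 in untreated KO macrophages. Cdk1 in WT averaged 404 ± 49.3 with LPS and 847 ± 87.4 without. Cdk1 fell with a log2 change of -1.13 ± 0.11 in KO and -1.07 ± 0.11 in WT macrophages (adjusted p = 2.5e-05 and 1.49e-05, limma). The fall of Cdk1 in WT macrophages was close to the threshold, at -0.97 without replicate 3 of the LPS-treated and -0.99 without replicate 2 of the untreated libraries, both no longer called. The 2 G1 kinases differed in sign, each below 2-fold. Cdk4 averaged 1076 ± 18.9 in LPS-treated KO and 1818 ± 64.7 in untreated KO macrophages. Cdk4 in WT averaged 1208 ± 119.5 with LPS and 1952 ± 98.7 without. The change of Cdk4 was -0.76 ± 0.06 in KO and -0.69 ± 0.08 in WT macrophages. Cdk6, its close relative, averaged 6146 ± 512 in LPS-treated KO and 3371 ± 147 in untreated KO macrophages. Cdk6 in WT averaged 6314 ± 138 with LPS and 3471 ± 133 without. The change of Cdk6 was 0.86 ± 0.07 in KO and 0.86 ± 0.05 in WT macrophages, and for both kinases the groups of a genotype did not overlap.

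Among the CDK inhibitors 2 rose and 1 fell in both genotypes. Cdkn1a, which encodes p21, had 31315, 33655 and 34126 normalized counts in LPS-treated KO macrophages, against 4891, 4474 and 4545 in untreated KO macrophages. In WT macrophages Cdkn1a had 35708, 33197 and 41195 with LPS, against 5463, 5169 and 6534 without. It rose 7.12-fold in KO (2.83 ± 0.07, adjusted p = 6.16e-09, limma) and 6.42-fold in WT macrophages (2.68 ± 0.10, adjusted p = 1.89e-08, limma). Per kilobase of exons it was the highest of the 48 genes after LPS, at 9297 normalized counts in KO and 10329 in WT macrophages. The INK4 inhibitors, which bind Cdk4 and Cdk6, moved in opposite directions. Cdkn2d (p19-INK4d) averaged 1211 ± 196 in LPS-treated KO and 358 ± 35.1 in untreated KO macrophages. Cdkn2d in WT averaged 1515 ± 127 with LPS and 351 ± 28.2 without. Cdkn2d rose by a log2 change of 1.75 ± 0.13 in KO and 2.11 ± 0.09 in WT macrophages (adjusted p = 3.16e-06 and 2.88e-08, limma). Cdkn2c (p18-INK4c) averaged 265 ± 13 in LPS-treated KO and 1015 ± 36.7 in untreated KO macrophages. Cdkn2c in WT averaged 227 ± 7.96 with LPS and 792 ± 48.3 without. Cdkn2c fell with a log2 change of -1.93 ± 0.07 in KO and -1.80 ± 0.08 in WT macrophages (adjusted p = 5.63e-08 and 4.35e-08, limma). Cdkn1b, which encodes p27, averaged 1062 ± 59.1 in LPS-treated KO and 1230.4 ± 82.4 in untreated KO macrophages. Cdkn1b in WT averaged 925 ± 137 with LPS and 1313 ± 196 without. The change of Cdkn1b was -0.21 ± 0.07 in KO and -0.51 ± 0.13 in WT macrophages, not called in either, and in KO it turned positive under upper quartile scaling.

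The E2F factors and pocket proteins gave the deepest fall and, next to Ccnd2 and Cdkn1a, one of the largest rises. E2f2, an activating E2F factor, had 15.7, 9.15 and 17.7 normalized counts in LPS-treated KO macrophages, against 387, 331 and 264 in untreated KO macrophages. In WT macrophages E2f2 had 14.1, 8.19 and 11.1 with LPS, against 244, 310.2 and 268 without. It fell 22-fold in KO (-4.46 ± 0.26, adjusted p = 6.84e-07, limma) and 23-fold in WT macrophages (-4.52 ± 0.21, adjusted p = 7.65e-08, limma). E2f1, the founding activator of the family, averaged 350.1 ± 7.73 in LPS-treated KO and 936 ± 19.5 in untreated KO macrophages. E2f1 in WT averaged 376 ± 53.6 with LPS and 974 ± 77.3 without. E2f1 fell with a log2 change of -1.42 ± 0.06 in KO and -1.38 ± 0.11 in WT macrophages (adjusted p = 1.71e-07 and 3.08e-06, limma). Rbl1, which encodes the pocket protein p107, had 5513, 4958 and 5270.2 normalized counts in LPS-treated KO macrophages, against 775, 792 and 736 in untreated KO macrophages. In WT macrophages Rbl1 had 4868, 4977 and 5677 with LPS, against 823, 877 and 695 without. It rose 6.82-fold in KO (adjusted p = 4.06e-09, limma) and 6.49-fold in WT macrophages (adjusted p = 1.03e-08, limma). Rb1, the retinoblastoma gene itself, averaged 669 ± 51.5 in LPS-treated KO and 1313 ± 83 in untreated KO macrophages. Rb1 in WT averaged 718 ± 95.5 with LPS and 1330.1 ± 153 without. The change of Rb1 was -0.97 ± 0.08 in KO and -0.89 ± 0.11 in WT macrophages, just short of 2-fold. E2f8, an atypical E2F factor that represses E2F targets, averaged 312 ± 36.4 in LPS-treated KO and 314 ± 26 in untreated KO macrophages. E2f8 in WT averaged 272 ± 9.88 with LPS and 319 ± 55.7 without. The groups of E2f8 overlapped, with changes of -0.02 ± 0.11 in KO and -0.21 ± 0.12 in WT macrophages, both of which turned positive under upper quartile scaling.

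**Figure D2:**
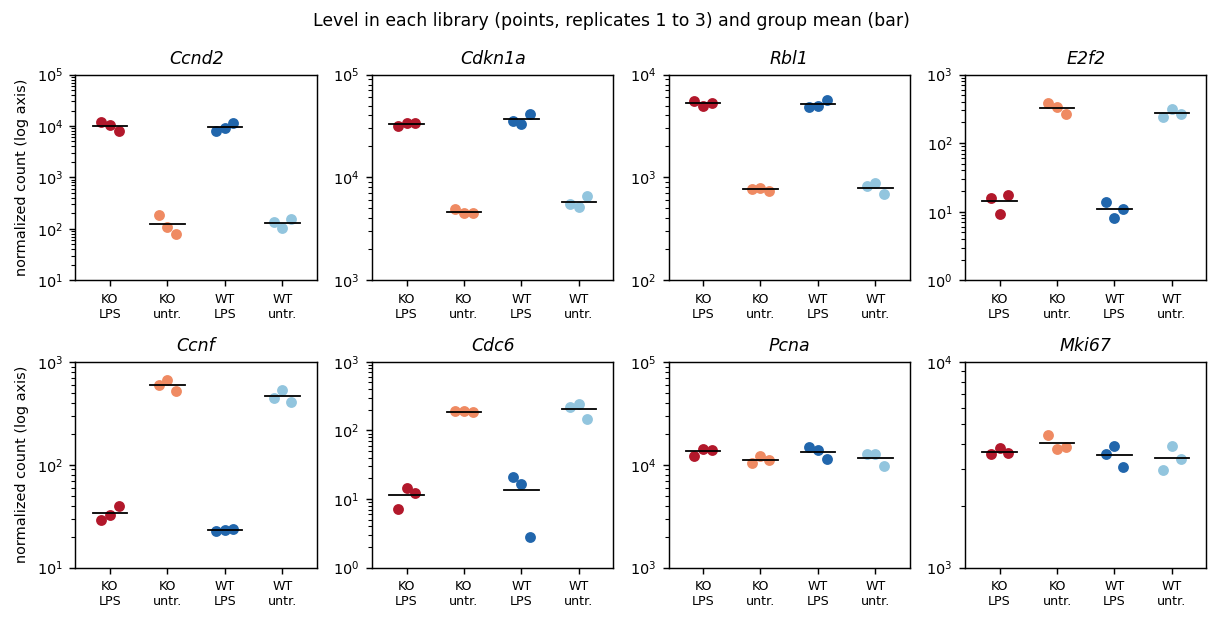
Normalized counts of 8 genes (y axes, log scale) in each library of the 4 groups (points) with the group mean (bar). Ccnd2, Cdkn1a and Rbl1 are higher and E2f2, Ccnf and Cdc6 lower in every LPS-treated library, while Mki67 and, in WT macrophages, Pcna overlap between treatments, and Cdc6 in replicate 3 of the LPS-treated WT macrophages stands at 2.78.

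The 12 genes of origin licensing and the replisome differed among themselves. Of the 6 MCM subunits that form the replicative helicase, Mcm2, Mcm3, Mcm4 and Mcm7 fell in both genotypes, Mcm5 was at -0.90 ± 0.09 in KO and -0.81 ± 0.18 in WT macrophages without a call, and Mcm6 had overlapping groups. Mcm2 had 179, 179 and 136 normalized counts in LPS-treated KO macrophages, against 865, 847 and 802 in untreated KO macrophages. In WT macrophages Mcm2 had 243, 257 and 142 with LPS, against 1004, 1028 and 695 without. It fell with a log2 change of -2.35 ± 0.12 in KO and -2.11 ± 0.23 in WT macrophages (adjusted p = 2.91e-07 and 2.51e-05, limma). Mcm6 had 2481, 2215 and 2283 normalized counts in LPS-treated KO macrophages, against 2472, 2330.3 and 2125 in untreated KO macrophages. In WT macrophages Mcm6 had 2174, 2211 and 1786 with LPS, against 2327, 2471 and 1758 without. The changes of Mcm6 were 0.01 ± 0.07 in KO and -0.08 ± 0.13 in WT macrophages, of which that in KO turned negative under quantile normalization and scaling to total reads and that in WT positive under upper quartile scaling.

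Mcm3 averaged 479.9 ± 29.1 in LPS-treated KO and 1324 ± 121 in untreated KO macrophages. Mcm3 in WT averaged 531 ± 136 with LPS and 1329 ± 239 without. Mcm3 fell with a log2 change of -1.46 ± 0.09 in KO and -1.34 ± 0.20 in WT macrophages. Mcm4 averaged 404 ± 47.2 in LPS-treated KO and 950.2 ± 58.8 in untreated KO macrophages. Mcm4 in WT averaged 457 ± 109 with LPS and 943 ± 128 without. Mcm4 fell with a log2 change of -1.24 ± 0.10 in KO and -1.07 ± 0.17 in WT macrophages, in WT no longer called without replicate 3 of the LPS-treated (-0.85) or replicate 2 of the untreated libraries (-0.98). Mcm7 averaged 347 ± 23.4 in LPS-treated KO and 1013 ± 67.3 in untreated KO macrophages. Mcm7 in WT averaged 438 ± 93 with LPS and 1033 ± 137 without. Mcm7 fell with a log2 change of -1.54 ± 0.08 in KO and -1.25 ± 0.16 in WT macrophages. Mcm5 averaged 673 ± 56 in LPS-treated KO and 1254 ± 127 in untreated KO macrophages. Mcm5 in WT averaged 712 ± 139.6 with LPS and 1249.6 ± 269 without. Mcm3, Mcm4 and Mcm7 had adjusted p-values in limma between 4.39e-07 (Mcm7 in KO) and 0.000407 (Mcm4 in WT).

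Cdc6, which loads the MCM helicase at origins, had 7.26, 14.4 and 12.2 normalized counts in LPS-treated KO macrophages, against 191, 189 and 184 in untreated KO macrophages. In WT macrophages Cdc6 had 21.1, 16.4 and 2.78 with LPS, against 221, 244 and 148 without. It fell 15.9-fold in KO (-3.99 ± 0.25, adjusted p = 1.09e-06, limma) and 17.7-fold in WT macrophages (-4.15 ± 0.58, adjusted p = 0.000136, limma), and without replicate 3 of the LPS-treated WT macrophages, which had 2 reads, its log2 change in WT was -3.36. Its licensing partner Cdt1 averaged 638 ± 18.1 in LPS-treated KO and 947 ± 90.7 in untreated KO macrophages. Cdt1 in WT averaged 686 ± 77.7 with LPS and 998 ± 171 without. The change of Cdt1 was -0.57 ± 0.08 in KO and -0.53 ± 0.13 in WT macrophages, under 2-fold. Cdc45, a component of the active helicase, averaged 78.7 ± 20.4 in LPS-treated KO and 313 ± 54.5 in untreated KO macrophages. Cdc45 in WT averaged 53.1 ± 14.6 with LPS and 197 ± 28.4 without. Cdc45 fell with a log2 change of -1.99 ± 0.20 in KO and -1.90 ± 0.20 in WT macrophages (adjusted p = 2.18e-05 and 2.35e-05, limma).

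Mcm10, which acts when origins fire, rose in KO macrophages. It averaged 632 ± 86.9 in LPS-treated KO and 304 ± 50.2 in untreated KO macrophages. Mcm10 in WT averaged 509 ± 36.9 with LPS and 305 ± 72.7 without. Its change in KO was called (1.06 ± 0.15, adjusted p = 0.000182, limma), where it missed 2-fold without replicate 1 of the LPS-treated (0.97) or replicate 3 of the untreated libraries (0.92), and its change in WT was 0.76 ± 0.16. Pcna, the sliding clamp of DNA polymerases, had 12135, 14274 and 14062 normalized counts in LPS-treated KO macrophages, against 10436, 12070.5 and 11116 in untreated KO macrophages. In WT macrophages Pcna had 14780.5, 13809 and 11481 with LPS, against 12756, 12634 and 9813 without. The groups overlapped in WT and lay close together in KO, and the changes of 0.27 ± 0.09 in KO and 0.19 ± 0.12 in WT macrophages were not called and turned negative under scaling to total reads and under quantile normalization. Gins2, a subunit of the helicase, averaged 384 ± 18.9 in LPS-treated KO and 400.5 ± 16.4 in untreated KO macrophages. Gins2 in WT averaged 388 ± 29 with LPS and 369 ± 52.4 without. The groups of Gins2 overlapped, with changes of -0.06 ± 0.08 in KO and 0.08 ± 0.11 in WT macrophages that turned positive in KO under upper quartile scaling and quantile normalization and negative in WT under scaling to total reads. Exons of Gse1 on the opposite strand cover 2758 bases of those of Gins2, and whether reads were counted by strand is not given in the sources used here.

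Nucleotide supply was led by Rrm2, the regulated small subunit of ribonucleotide reductase. Rrm2 had 272, 323 and 305 normalized counts in LPS-treated KO macrophages, against 988, 1156 and 901 in untreated KO macrophages. In WT macrophages Rrm2 had 284, 326 and 249 with LPS, against 888, 1059 and 797 without. Every LPS-treated library was below every untreated one. Rrm2 fell with a log2 change of -1.75 ± 0.11 in KO and -1.67 ± 0.13 in WT macrophages (adjusted p = 1.08e-06 and 2.04e-06, limma). Its large subunit Rrm1 averaged 1413 ± 124 in LPS-treated KO and 1973 ± 138 in untreated KO macrophages. Rrm1 in WT averaged 1234 ± 121 with LPS and 1890.5 ± 181 without. The change of Rrm1 was -0.48 ± 0.08 in KO and -0.62 ± 0.09 in WT macrophages, under 2-fold. Tk1, the thymidine kinase of S phase, averaged 300.2 ± 20.2 in LPS-treated KO and 609.6 ± 10.9 in untreated KO macrophages. Tk1 in WT averaged 281 ± 20.2 with LPS and 504 ± 98.8 without. Tk1 passed the call in KO macrophages only just (-1.02 ± 0.08, and -0.97 without replicate 3 of the LPS-treated libraries), with -0.82 ± 0.13 in WT macrophages. Tyms, the thymidylate synthase, averaged 233 ± 14.8 in LPS-treated KO and 232 ± 41 in untreated KO macrophages. Tyms in WT averaged 189 ± 20.7 with LPS and 237 ± 14 without. Its changes of 0.02 ± 0.14 in KO and -0.33 ± 0.11 in WT macrophages were not called, and that in KO turned negative under scaling to total reads.

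Of the 10 genes of mitosis 8 fell in both genotypes, with a median change of -1.69 in KO and -1.74 in WT macrophages. Cdc20, which activates the anaphase-promoting complex, had 81, 75.8 and 70.8 normalized counts in LPS-treated KO macrophages, against 497, 507 and 403 in untreated KO macrophages. In WT macrophages Cdc20 had 42.2, 66.9 and 45.9 with LPS, against 269.9, 323 and 309.9 without. It fell with a log2 change of -2.61 ± 0.12 in KO and -2.54 ± 0.18 in WT macrophages (adjusted p = 2.03e-07 and 1.25e-06, limma). The mitotic kinases followed. Aurka averaged 109.7 ± 8.68 in LPS-treated KO and 402 ± 48 in untreated KO macrophages. Aurka in WT averaged 91.5 ± 25.1 with LPS and 349 ± 59.1 without. Aurka fell with a log2 change of -1.86 ± 0.12 in KO and -1.95 ± 0.21 in WT macrophages. Aurkb, of the chromosomal passenger complex, averaged 105 ± 9.33 in LPS-treated KO and 427 ± 34.8 in untreated KO macrophages. Aurkb in WT averaged 103 ± 12.3 with LPS and 402 ± 60.3 without. Aurkb fell with a log2 change of -2.02 ± 0.11 in KO and -1.95 ± 0.14 in WT macrophages. Plk1 averaged 149 ± 12.7 in LPS-treated KO and 466 ± 39.5 in untreated KO macrophages. Plk1 in WT averaged 105 ± 15.6 with LPS and 379 ± 34.8 without. Plk1 fell with a log2 change of -1.64 ± 0.11 in KO and -1.84 ± 0.13 in WT macrophages. These 3 kinases had adjusted p-values in limma between 5.43e-07 (Aurkb in KO) and 2.26e-05 (Aurka in WT).

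The spindle checkpoint kinase Bub1 averaged 187 ± 23.4 in LPS-treated KO and 474 ± 40.9 in untreated KO macrophages. Bub1 in WT averaged 139 ± 24.2 with LPS and 429.9 ± 59.1 without. Bub1 fell with a log2 change of -1.34 ± 0.11 in KO and -1.63 ± 0.14 in WT macrophages. Its relative Bub1b averaged 188 ± 34.8 in LPS-treated KO and 745 ± 40.5 in untreated KO macrophages. Bub1b in WT averaged 170.1 ± 25.9 with LPS and 626 ± 42 without. Bub1b fell with a log2 change of -1.99 ± 0.14 in KO and -1.88 ± 0.12 in WT macrophages. Foxm1, the transcription factor of the G2 and mitosis genes, averaged 166 ± 20 in LPS-treated KO and 555 ± 46.6 in untreated KO macrophages. Foxm1 in WT averaged 149 ± 36.6 with LPS and 437 ± 47.1 without. Foxm1 fell with a log2 change of -1.74 ± 0.11 in KO and -1.57 ± 0.16 in WT macrophages. Top2a, the DNA topoisomerase of chromosome condensation, fell least among the called genes of mitosis. It averaged 1488 ± 237 in LPS-treated KO and 3117 ± 209 in untreated KO macrophages. Top2a in WT averaged 1172 ± 181 with LPS and 2635 ± 343 without. The change of Top2a was -1.08 ± 0.11 in KO and -1.17 ± 0.12 in WT macrophages. Birc5 (survivin) averaged 303 ± 33.8 in LPS-treated KO and 525 ± 41.6 in untreated KO macrophages. Birc5 in WT averaged 243 ± 34.6 with LPS and 436 ± 82 without. The change of Birc5 was -0.79 ± 0.11 in KO and -0.83 ± 0.15 in WT macrophages and was not called.

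Mki67, the gene of the widely used proliferation antigen Ki-67, stood apart from the other genes of mitosis. It had 3561, 3799.7 and 3595 normalized counts in LPS-treated KO macrophages, against 4403, 3791 and 3842 in untreated KO macrophages. In WT macrophages Mki67 had 3551, 3896 and 3094 with LPS, against 2996, 3893 and 3359 without. The groups overlapped in both genotypes, with changes of -0.13 ± 0.07 in KO and 0.04 ± 0.11 in WT macrophages, of which that in KO turned positive under upper quartile scaling and that in WT negative under quantile normalization and scaling to total reads. Of the 10 genes of mitosis Mki67 had the highest level per kilobase of exons in every group, 363 normalized counts in LPS-treated KO and 399 in untreated KO macrophages, and 349 in LPS-treated WT and 339.5 in untreated WT macrophages.

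Other genes of the cell cycle outside the 48 were counted in the same comparison. Of 98 such genes in 3 lists (origin recognition and replisome, control of G1 with E2F and DREAM, and spindle, kinetochore and cytokinesis), 97 were in the table and tested, of which 48 fell and 4 rose in KO and 50 fell and 4 rose in WT macrophages, with medians of -0.95 in KO and -1.09 in WT. The others did not pass the call, and of all genes 16.6% fell and 17.3% rose in KO and 16.9% fell and 17.1% rose in WT. The 5 largest changes in WT were falls. Kif23, a kinesin of cytokinesis, averaged 65.2 ± 2.73 normalized counts with LPS and 732 ± 67.2 without in WT macrophages, and its change was -3.55 ± 0.13 in KO and -3.47 ± 0.10 in WT macrophages. Espl1 (separase) changed by -3.13 ± 0.16 in KO and -3.32 ± 0.18 in WT, and Clspn (claspin, of the replication checkpoint) by -3.61 ± 0.13 in KO and -3.21 ± 0.16 in WT. The atypical factor E2f7 fell, unlike its relative E2f8, by -3.22 ± 0.18 in KO and -3.02 ± 0.32 in WT, and Uhrf1, which keeps DNA methylation at replication, by -3.14 ± 0.14 in KO and -2.98 ± 0.25 in WT. Among 16 antiproliferative and p53 response genes 5 rose and 5 fell in KO and 4 rose and 5 fell in WT macrophages, so that list had no common direction.

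Whether loss of Rasgef1b changed the 48 genes was asked in untreated and in LPS-treated macrophages separately. No gene of the 48 was called by limma, edgeR or DESeq2 in either condition, against 0.0963% of all genes called higher and 0.0963% called lower in untreated macrophages, and 0.168% called higher and 0.064% called lower with LPS. At an unadjusted p under 0.05, 13 of the 48 were higher and 2 lower in untreated KO than in untreated WT macrophages, where 5.75% and 5.05% of all genes were, and 11 were higher and 3 lower with LPS, where 5.49% and 5.09% were. By the other tools the counts at that p were 12 higher and 2 lower (edgeR) and 14 higher and 2 lower (DESeq2) in untreated macrophages, and 10 higher and 4 lower (edgeR) and 8 higher and 3 lower (DESeq2) with LPS. The groups did not overlap for 7 genes higher in KO and 2 lower in untreated macrophages (8.41% and 7.98% of all genes), and for 10 higher and 3 lower with LPS (8.35% and 7.73%). The median difference of the 48 was 0.07 in untreated macrophages and 0.11 with LPS, that of all genes -0.01 and 0.00 (log2, KO over WT). These figures moved with single libraries. In untreated macrophages leaving out 1 library gave 8 (without replicate 1 of WT) to 19 (without replicate 2 of WT) genes higher and 2 to 7 (without replicate 3 of WT) lower at an unadjusted p under 0.05. The median then ran over 0.030 (without replicate 2 of KO) to 0.16 (without replicate 2 of WT). Without replicate 2 of the untreated KO macrophages, 10 were higher and 2 lower. With LPS the same gave 4 (without replicate 2 of KO or replicate 1 of WT) to 14 (without replicate 2 of WT) higher and 2 to 8 (without replicate 3 of WT) lower, with medians of 0.054 (without replicate 2 of KO) to 0.15 (without replicate 2 of WT).

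Ccnd1 (GRCm38 chr7:144929931-144939925, minus strand) was the gene with the smallest p in both conditions, and the one gene of the 48 that was lower in KO at an adjusted p under 0.05 (0.281% of all genes in untreated macrophages and 0.312% with LPS). It had 2119, 2269 and 2012 normalized counts in LPS-treated KO macrophages, against 2744, 3317 and 2955 in LPS-treated WT macrophages. In untreated KO macrophages it had 4238, 4099.6 and 3882, against 5306, 5750.1 and 5128 in untreated WT macrophages. No KO library reached the lowest WT library of its condition, and the difference was -0.49 ± 0.08 with LPS (adjusted p = 0.0288, limma) and -0.40 ± 0.06 without (adjusted p = 0.0397, limma), both under 2-fold. Leaving out 1 library put the adjusted p of Ccnd1 between 0.0423 and 0.155 in untreated and between 0.032 and 0.152 in LPS-treated macrophages, with 0.0787 in untreated macrophages without replicate 2 of KO. With a variance that did not depend on the level it was 0.158 in untreated and 0.209 in LPS-treated macrophages. Under scaling to total reads Ccnd1 missed an adjusted p under 0.05 in untreated macrophages and kept it with LPS. In untreated macrophages DESeq2 put 4 genes higher and 2 lower at an adjusted p under 0.05 (Ccnb2, Cdc20, Cdc45 and Cdkn2c higher, Ccnd1 and Cdkn1a lower), where it put 175 higher and 151 lower of all 12461 genes. Of the 48, edgeR put Ccnd1 alone there, with 28 higher and 28 lower of all genes. Exons of a gene on the opposite strand, LTO1, cover 1100 bases of those of Ccnd1.

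Ccnb2 (GRCm38 chr9:70407692-70421547, minus strand) was higher in every KO library than in any WT library of its condition. It had 560.0, 578 and 525 normalized counts in LPS-treated KO macrophages, against 342, 374 and 415 in LPS-treated WT macrophages. In untreated KO macrophages it had 728, 784 and 677, against 429.7, 538 and 516 in untreated WT macrophages. The differences were 0.56 ± 0.10 with LPS (adjusted p = 0.0305, limma, an adjusted p under 0.05 that 0.504% of all genes had in this direction) and 0.56 ± 0.10 without (adjusted p = 0.0538, limma). Leaving out 1 library moved the adjusted p with LPS between 0.0287 and 0.144, and with a variance that did not depend on the level it was 0.18.

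Cdc20 came next in untreated macrophages, with 497, 507 and 403 normalized counts in KO and 269.9, 323 and 309.9 in WT macrophages. The 3 KO libraries lay above the 3 WT libraries, a difference of 0.64 ± 0.11 (adjusted p = 0.0545, limma). With LPS the third smallest p was that of Ccna2, with 316, 369 and 353 normalized counts in KO and 256, 281 and 241 in WT macrophages and a difference of 0.41 ± 0.11 (adjusted p = 0.147, limma).

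**Figure D3:**
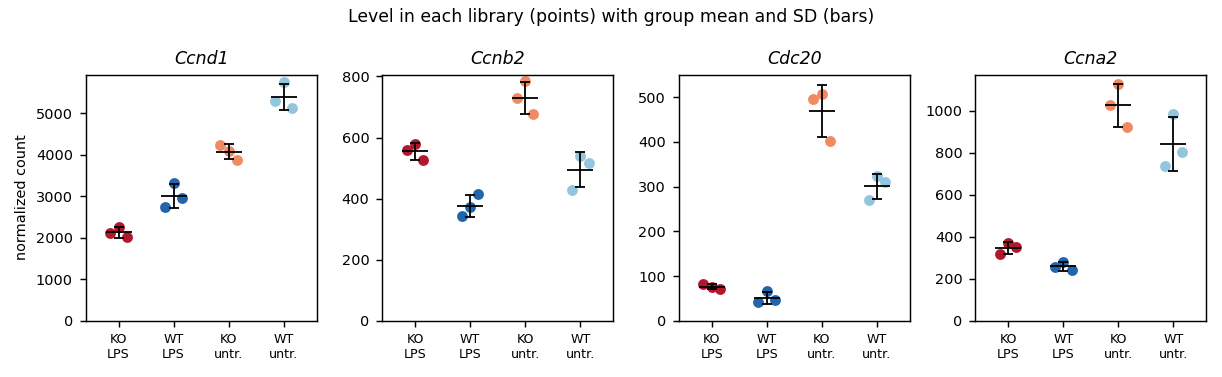
Normalized counts (y axes, from 0) of Ccnd1, Ccnb2, Cdc20 and Ccna2 in each library (points) with the group mean and SD (bars), KO left of WT within each condition. Ccnd1 is lower and Ccnb2 higher in all 3 KO libraries of both conditions, and Cdc20 is at 403 or more in untreated KO and at 323 or less in untreated WT macrophages.

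The genes of mitosis and the cyclins of the A, B and F types leaned to KO together, each by less than 2-fold. All 10 genes of mitosis had positive differences in both conditions, with medians of 0.31 with LPS and 0.25 in untreated macrophages, and 5 with LPS and 6 in untreated macrophages had an unadjusted p under 0.05. Of all genes, 6199 of 12504 were positive with LPS and 5806 of 12461 in untreated macrophages. At that p 5.49% of all genes were higher in KO with LPS and 5.75% in untreated macrophages. The 4 cyclins had medians of 0.46 with LPS and 0.36 in untreated macrophages. The 12 genes of licensing and the replisome had medians of -0.04 with LPS and 0.01 in untreated macrophages, and 5 and 7 of them were positive. Without 1 library at a time 3 to 8 of these 12 were positive with LPS (medians of -0.22 to 0.024) and 2 to 10 in untreated macrophages (medians of -0.15 to 0.11). The difference between the roles was not tested. Outside the 48, of 35 genes of the spindle, the kinetochore and cytokinesis 32 were positive with LPS and 34 in untreated macrophages, with medians of 0.28 and 0.20 and with 15 and 16 at an unadjusted p under 0.05, all higher in KO. One of them had an adjusted p under 0.05, the ubiquitin-conjugating enzyme gene Ube2c with LPS, which is named here after its values were seen, with 599.8 ± 52 normalized counts in KO and 405 ± 36.7 in WT macrophages (0.57 ± 0.10, adjusted p = 0.0335, limma). Untreated and LPS-treated libraries with the same number deviated together within a genotype, so the conditions are not separate tests of this lean. The 35 genes were listed with earlier results of these data known, so they are no independent support for it. Genes of mitosis deviated together between libraries, so a count of genes is not a count of separate observations.

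**Figure D4:**
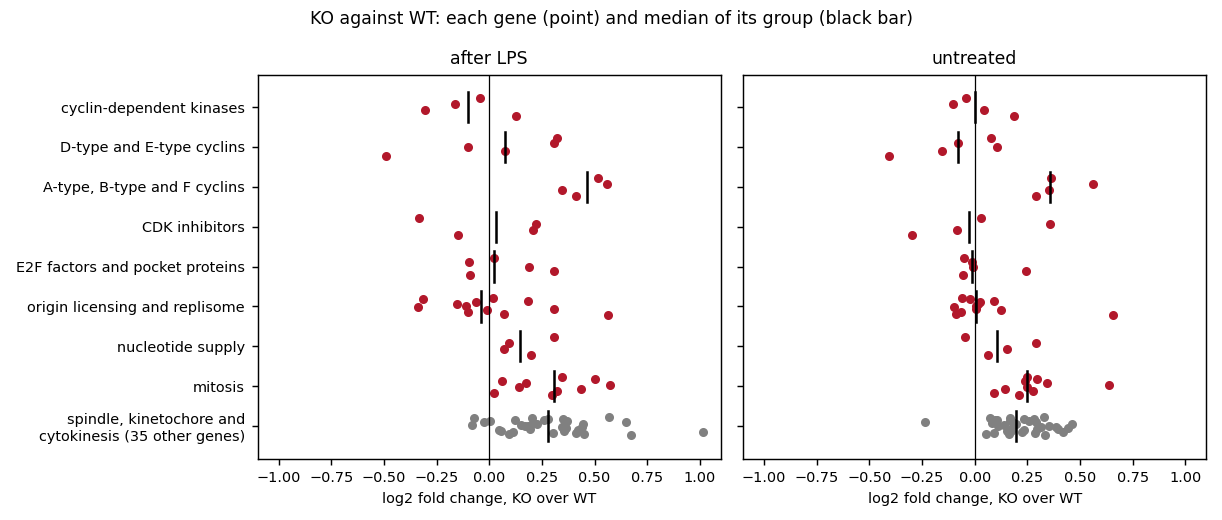
Log2 fold change of KO over WT (x axes) after LPS (left) and in untreated macrophages (right) for each of the 48 genes (red points) by role and for 35 other genes of the spindle, kinetochore and cytokinesis (grey points), with the median of each group (black bar). The medians for mitosis are 0.31 after LPS and 0.25 in untreated macrophages, and those for origin licensing and the replisome are -0.04 and 0.01.

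The lean depended on single libraries more in its p-values than in its sign. In untreated macrophages the 10 genes of mitosis stayed positive without any 1 library, with medians of 0.19 (without replicate 1 of WT) to 0.35 (without replicate 2 of WT), and those at an unadjusted p under 0.05 numbered 4 without replicate 1 or 3 of WT or replicate 1 of KO and 9 without replicate 2 of WT. Without replicate 2 of the untreated KO macrophages they numbered 5 and the median was 0.25. With LPS, 9 or 10 stayed positive, with medians of 0.15 (without replicate 3 of WT) to 0.45 (without replicate 2 of WT), and those at an unadjusted p under 0.05 numbered 1 without replicate 1 or replicate 3 of WT, 2 without replicate 2 of KO, 3 without replicate 1 of KO and 6 without replicate 2 of WT. Of the other 35 genes, 8 (without replicate 1 of WT) to 25 (without replicate 2 of WT) were at that p in untreated macrophages, and 10 (without replicate 2 of KO) to 18 (without replicate 2 of WT) with LPS. Summed progenitor markers (Kit, Cd34 and Gata2) were 20.6 to 52.3 normalized counts in LPS-treated KO and 11.1 to 19.7 in LPS-treated WT macrophages, and 34.6 to 49.6 in untreated KO and 25.1 to 30.3 in untreated WT macrophages. Summed macrophage markers were 250700 to 314000 in LPS-treated KO and 314300 to 363900 in LPS-treated WT macrophages, and 210300 to 262700 in untreated KO and 256400 to 317200 in untreated WT macrophages. Lyz2 (lysozyme) made up the larger share of the macrophage sum, with 129000 to 177900 in LPS-treated KO and 183900 to 214000 in LPS-treated WT macrophages. Of the 7 macrophage markers 6 had a negative difference of KO against WT in both conditions. Itgam was the 1 that was higher in KO, at 5146 to 5674 in LPS-treated KO and 4499 to 4739 in LPS-treated WT macrophages. The part of any of these in the lean was not tested.

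Whether the LPS response of the 48 genes differed between the genotypes was asked with the interaction of genotype and LPS over all 12 libraries. None of the 48 passed an adjusted p under 0.05 in limma, edgeR or DESeq2, against 0.00787% of all genes in limma (1 of 12711), and 2 were under an unadjusted p of 0.05 in limma, both lower (1.89% of all genes were lower at that p), against 1 in edgeR and 1 in DESeq2, also lower. Those with the smallest p were Cdk2, Cdkn2d and Tyms. For Cdk2 the interaction over 12 libraries was -0.35 ± 0.12 (95% confidence interval -0.62 to -0.08, unadjusted p = 0.0147, adjusted p = 0.999, limma). Over the same 12 libraries it was -0.36 ± 0.17 for Cdkn2d (unadjusted p = 0.0482, adjusted p = 0.999, limma), its rise being the smaller in KO, and for Tyms 0.35 ± 0.18 (unadjusted p = 0.0747, adjusted p = 0.999, limma). A missed threshold does not show that the genotypes responded alike.

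Libraries of a group differed from each other in these genes in a shared way. In untreated WT macrophages all 12 genes of licensing and the replisome were lowest in replicate 3, as were 11 of 12 in LPS-treated WT macrophages, while replicate 3 was lowest for 37.2% and 33.9% of all genes in these groups. All 10 genes of mitosis were highest in replicate 2 of the WT macrophages both with LPS and without, where replicate 2 was highest for 26.2% of all genes with LPS and 27.0% without. In each KO group replicate 2 was highest for 5 of these 10 genes and for 26 of the 48. Over all genes in KO that held for 31.8% with LPS and 32.8% without. In untreated KO macrophages replicate 3 was lowest for 35 of the 48 genes, against 29.8% of all genes. The summed level of the 12 licensing and replisome genes ran over 16541, 20412 and 21290 normalized counts in LPS-treated WT and 17638, 23040 and 23691 in untreated WT macrophages. Pcna alone averaged 13357 of the mean sum of 19414 with LPS and 11734 of 21456 without. The genes of mitosis summed to 6169 to 6889 with LPS, against 10445 to 11802 without, in the KO libraries. In the WT libraries they summed to 5022 to 6504 with LPS, against 8496 to 10729 without, and the sums of treated and untreated libraries did not overlap in either genotype.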

How the data were processed

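Poly(A) RNA libraries (NEBNext Ultra II) were sequenced as paired ends. Per the study's methods and the submitters' processing notes, the authors used bcl2fastq 2.17, Trimmomatic 0.39, STAR 2.7.4a (GRCm38, annotation release 100), featureCounts of Subread 2.0.1 and DESeq2 1.32.0 in R 4.1.2. The strand setting of the counting is not given in the sources used here, and 17 of the 48 genes have exons of a gene on the opposite strand over theirs. The deposited values are a signal, counts divided by DESeq2 size factors by the authors, and 100% of them gave whole reads (tolerance 1e-06).

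The limma package (version 3.58.1, R 4.3.3), with a trended variance, was run on log2 of the value plus a pseudocount of 1 in the 6 libraries of each comparison, for genes with a mean of at least 10, with Benjamini-Hochberg adjustment over all genes. Genes at an adjusted p under 0.05 that differed by 2-fold or more were called. The interaction used all 12 libraries and no fold threshold. On the recovered reads edgeR 4.0.16 and DESeq2 1.42.0 were alternatives, besides other scalings, filters, pseudocounts, a variance without trend, replicate blocks and leaving out each library. The scripts were tested on simulated data.

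Same-numbered untreated and LPS-treated libraries of a genotype deviated together (r of 0.33, 0.19 and 0.24 in WT and 0.29, 0.28 and 0.17 in KO over 12711 genes). The labels do not say what these libraries shared. The study's methods call the comparisons unpaired, as the main fits here were. Between genotypes r was -0.20 to 0.24. The 48 genes and the other lists were chosen with earlier results of these data known. All 48 are described by level. Test values are given for any of them after LPS, for the 3 with the smallest p between genotypes and in the interaction, and for the 5 largest called changes in WT among other cell cycle genes.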

Additional observations from a re-analysis of the deposited data

How the results depend on the processing

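Counts of called genes among the 48 kept within 1.5 times their value under DESeq2, edgeR, both other pseudocounts, no filter, a mean of at least 50, quantile normalization, a variance without trend and 1 fit of all 12 libraries. In WT macrophages 7 genes were called higher under upper quartile scaling, 35 lower under scaling to total reads, and 7 higher and 35 lower with no fold threshold. Over all genes in KO, 2201 were called higher and 2108 lower, against 1405 and 4731 under scaling to total reads and 2812 and 1534 under upper quartile scaling. With no fold threshold 1 gene was lower in untreated KO than WT macrophages, and 1 was higher and 1 lower with LPS. Leaving out 1 library gave 24 to 25 lower and 5 to 6 higher in KO, 21 to 24 lower and 4 to 4 higher in WT, and 0 between genotypes and in the interaction.

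The replicate block left 24 lower and 6 higher in KO, 23 lower and 4 higher in WT and 0 between genotypes and in the interaction. A replicate block within each genotype, chosen after seeing the data, also gave 0 in the interaction. Between genotypes same-numbered libraries had r of -0.03, -0.04 and 0.24 in untreated and -0.20, -0.04 and 0.06 in LPS-treated macrophages. Libraries of different numbers reached 0.22 in untreated and 0.27 in LPS-treated macrophages, so over all genes the numbers gave no steady pairing. In the 48 genes, however, replicate 2 was most often the highest in every group (26 in each KO group, 27 in LPS-treated and 39 in untreated WT macrophages). Between genotypes the block put 5 genes higher and 1 lower in untreated macrophages, and 0 higher and 1 lower with LPS, at an adjusted p under 0.05. Of all genes it put 92 higher and 120 lower of 12461 in untreated macrophages, and 55 higher and 42 lower of 12504 with LPS.

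Directions that turned belonged to genes that were not called, and the cause was not tested. Under scaling to total reads the log2 changes in KO were -0.67 (Mcm6), -0.42 (Pcna) and -0.67 (Tyms), and in WT -0.60 (Ccnd3), -0.65 (Gins2), -0.68 (Mki67) and -0.54 (Pcna). These were under 2-fold, but their adjusted p in limma ran from 2.62e-05 (Mcm6 in KO) to 0.00248 (Pcna in WT). Whether these genes were lower after LPS thus depended on the scaling. Under upper quartile scaling the log2 changes were 0.20 (Ccnd3), 0.071 (Cdkn1b), 0.27 (E2f8), 0.22 (Gins2) and 0.15 (Mki67) in KO and 0.084 (E2f8) and 0.22 (Mcm6) in WT. Of these only Gins2 in KO had an adjusted p under 0.05 (0.034, limma). Under quantile normalization the log2 changes were 0.13 (E2f8), 0.030 (Gins2), -0.58 (Mcm6) and -0.72 (Pcna) in KO and -0.71 (Mki67) and -0.79 (Pcna) in WT. The negative ones had adjusted p in limma of 7.98e-05 (Mcm6 in KO) to 0.00095 (Mki67 in WT). In edgeR Mcm6 was at -0.014 and Tyms at -0.018 in KO.

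Without 1 library at a time the changes that turned ran over -0.17 to 0.036 (Ccnd3), -0.11 to 0.049 (E2f8), -0.047 to 0.062 (Mcm6) and -0.11 to 0.15 (Tyms) in KO and -0.010 to 0.20 (Ccnd3), -0.014 to 0.19 (Gins2), -0.23 to 0.020 (Mcm6) and -0.048 to 0.14 (Mki67) in WT macrophages.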
